A study of Mus musculus with 6 samples.

Results

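The 9 genes described here encode enzymes that make heme (Alas1, Alas2, Alad, Urod, Cpox, Ppox and Fech) and enzymes that break it down (Hmox1 and Blvrb). They were chosen by gene symbol from a table of 55414 annotated genes, and all 9 were found and passed the filter on low values. Libraries came from livers of male mice, 12 weeks old, after a 16 h fast. Control mice carried the genotype labelled Gapfl, a floxed Gapdh gene, and drank plain water. Knockout mice, labelled GapAlb KO, lacked Gapdh in hepatocytes and drank either plain water or water with 5% serine. Gapdh is the glycolytic enzyme that oxidises glyceraldehyde 3-phosphate. There were 2 libraries in each of 3 groups, every one a pool of RNA of 2 mice, so p-values measure the spread between pools. The labels do not give the Cre driver behind the name GapAlb. Other liver cells keep the gene in a hepatocyte-specific knockout, and controls given serine were not analysed here.

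Heme synthesis begins in mitochondria, where 5-aminolevulinate synthase joins glycine to succinyl-CoA. The middle steps run in the cytosol and the last ones again in mitochondria, where ferrochelatase inserts iron into protoporphyrin. In hepatocytes the entry enzyme is ALAS1. Its gene is induced in fasting through the coactivator PGC-1 alpha and is held down by heme, most of which serves cytochrome P450 enzymes. Heme oxygenase opens the ring to biliverdin, iron and carbon monoxide, and biliverdin reductases act on the product. ALAS2 is the isozyme of red cell precursors.

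The genes of these isozymes differ in their start regions, which are shown because their levels lay on opposite sides of control in the knockouts on water. The reference sequences are RefSeq's on GRCm38.p6, a different build from that of the expression table, and 7 of the 9 genes had an entry, with 10 windows in all. Each window ran from 250 bases before to 50 after a start site. The Alas1 stretch (chr9:106247906-106247935, minus strand) holds, in capitals, the core bound by the transcription factor NRF1 (GCGCA followed by its reverse complement), 195 bases upstream of a RefSeq start. It also overlaps 1 annotated exon. The Alas2 stretch (chrX:150547275-150547374, plus strand) is 100 bases that overlap no annotated exon, with its motif 86 bases upstream of the RefSeq start. Its capitals mark TTATCT, which reads AGATAA, a motif of erythroid GATA factors, on the other strand.
Alas1: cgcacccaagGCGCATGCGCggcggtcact
Alas2: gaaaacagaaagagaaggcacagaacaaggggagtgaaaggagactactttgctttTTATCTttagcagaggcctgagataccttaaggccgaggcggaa
Searched on both strands, the NRF1 core was in 0.971% of all 32851 windows, and among the 7 genes in Alas1 alone. AGATAA was in 11.2% of windows and in those of Alas2 and Cpox. The antioxidant response core TGACNNNGC, bound by NRF2, was in 12.4% of windows and in 0 of the 7 genes. Hmox1 and Fech had no entry, so their start regions were not searched for any of these motifs. A match describes letters in a window and does not show binding.

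Levels are FPKM as deposited, that is, fragments per kilobase of gene model scaled to the mapped fragments of a library. Depth, inferred from how low values step, was 17.6 M to 19.55 M fragments. Gapdh was measured at 1091 and 1391 FPKM in controls and between 17.0 and 23.8 FPKM in the 4 knockout libraries. The hepatocyte marker Alb ranged from 31905 to 43650 FPKM. Mitochondrially encoded genes took 12.3% and 12.2% of all FPKM in the controls, 9.70% and 12.6% in knockouts on water, and 12.0% and 8.89% in knockouts on serine. Differences are on the log2 scale after adding 0.5 to each FPKM, which shrinks those of genes with low levels, and ± gives the SD of 2 libraries. A gene is said to have risen or fallen only where limma gave a Benjamini-Hochberg adjusted p under 0.05 over all 11134 genes tested.

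In the controls Alas1 had the highest level, 241.0 ± 15.5 FPKM, and Hmox1 the lowest, 8.3 ± 1.35 FPKM. Between them stood Blvrb at 86.7 ± 18.6, Cpox at 84.5 ± 3.14, Fech at 64.1 ± 0.693, Urod at 58.4 ± 2.47, Alad at 56.3 ± 10.6, Alas2 at 29.2 ± 0.0424 and Ppox at 12.5 ± 0.827 FPKM. The libraries of Blvrb and Cpox overlapped, as did those of Urod and Alad and those of Fech and Alad, so these pairs did not differ beyond their spread. The table's gene lengths run from 1751 bases for Hmox1 to 13838 for Fech, and a level per length depends on them.

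In the deposited table's coordinates (GRCm39) the genes are scattered over the genome. Alas1 (ENSMUSG00000032786) spans chromosome 9 from 106110654 to 106125853 on the minus strand. Alas2 (ENSMUSG00000025270) spans chromosome X from 149330371 to 149353634 on the plus strand. Fech (ENSMUSG00000024588) spans chromosome 18 from 64585985 to 64623322 on the minus strand. Hmox1 (ENSMUSG00000005413) spans chromosome 8 from 75820249 to 75827217 on the plus strand. Alad and Urod share a chromosome, with Alad on chromosome 4 from 62427406 to 62438155 on the minus strand and Urod on chromosome 4 from 116847162 to 116851610 on the minus strand. Cpox spans chromosome 16 from 58490655 to 58537999 on the plus strand, Ppox chromosome 1 from 171103563 to 171108760 on the minus strand and Blvrb chromosome 7 from 27147403 to 27165569 on the plus strand.

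**Figure D1:**
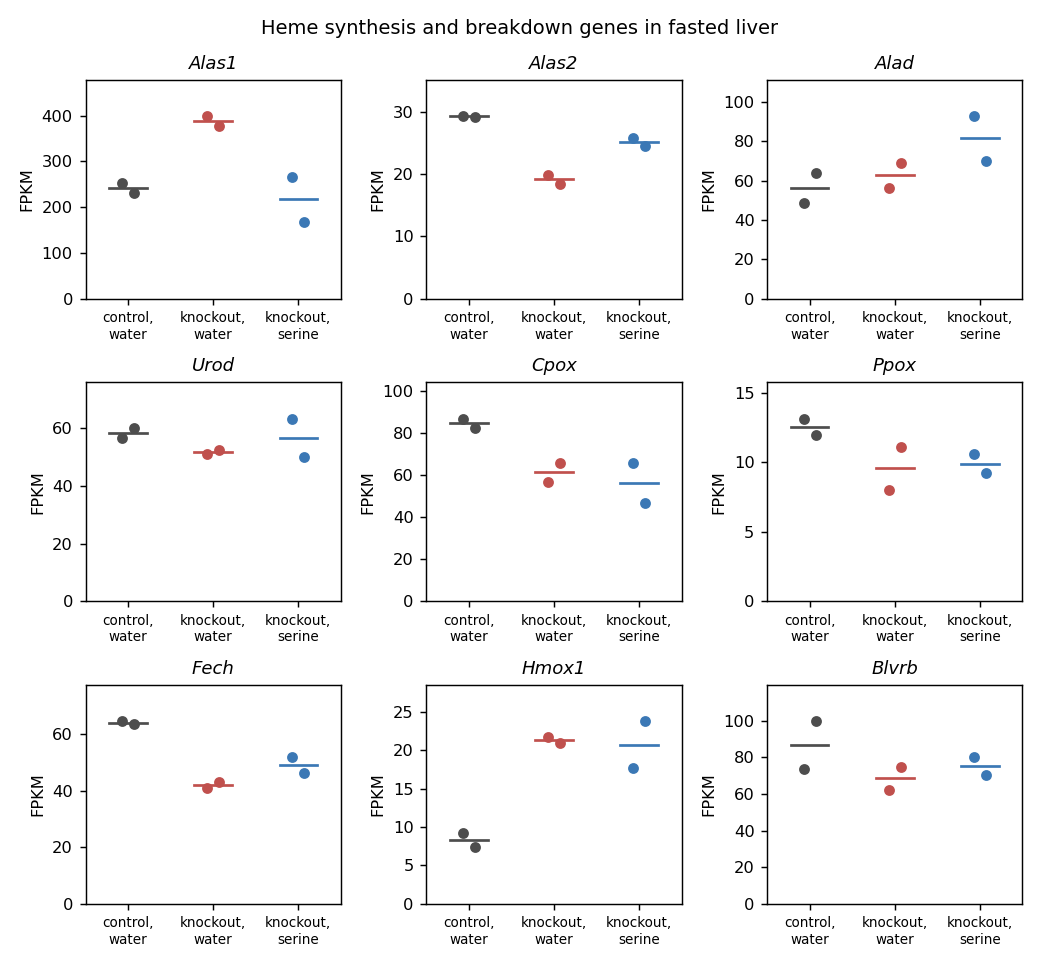
FPKM of the 9 genes (y axis, linear, from 0) in the 3 groups (x axis); each point is 1 library and each bar the mean of 2. Hmox1 is higher in all 4 knockout libraries than in the controls, and Alas1 is high only in the 2 knockout libraries on water. Alas2, Cpox, Ppox and Fech lie below the controls in all 4 knockout libraries.

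Knockout on water was first set against control, which asks what loss of hepatocyte Gapdh changes in fasted liver. Of the 9 genes, Hmox1 alone rose and 0 fell, where 1.21% of all genes tested were called (0.808% higher and 0.404% lower). These are 90 higher and 45 lower genes, or 61 and 48 with median-of-ratios scaling. At an unadjusted p under 0.05 there were 5 of the 9, and 21.6% of all genes. Both knockout libraries lay above both controls for 2 genes (Alas1 and Hmox1; 34.4% of all genes). They lay below for 5 genes (Alas2, Urod, Cpox, Ppox and Fech; 20.9% of all genes). The groups did not overlap for 55.4% of all genes in either direction. The median difference over the 9 genes was -0.33, and 0.08 over all genes. In bulk tissue, fewer cells of a type and less RNA per cell cannot be told apart.

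Alas1 encodes the rate-limiting enzyme of hepatic heme synthesis. The controls had 251.98 and 230.05 FPKM and the knockouts on water 398.57 and 376.48 FPKM, without overlap. Its mean was 160.8% of the control mean, a log2 difference of 0.68 (SE 0.22, 95% interval 0.16 to 1.21, limma adjusted p = 0.152), which did not pass.

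The later steps stood on the other side. Fech, the ferrochelatase of the last step, had 64.58 and 63.60 FPKM in the controls and 40.84 and 43.21 FPKM in the knockouts on water, where its mean was 65.6% of control. The difference was -0.60 (95% interval -0.90 to -0.30, adjusted p = 0.0736). Cpox, which makes protoporphyrinogen from coproporphyrinogen, had 86.74 and 82.30 FPKM in the controls and 56.90 and 65.78 FPKM in the knockouts on water (-0.46, 95% interval -0.92 to -0.01, adjusted p = 0.223). Ppox, the oxidase between Cpox and Fech, had 13.13 and 11.96 FPKM against 8.02 and 11.08 FPKM (-0.39, adjusted p = 0.299). Its model overlaps B4galt3 on the other strand by 907 bases. None of these differences passed, although neither knockout library reached a control library in any of these genes.

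The cytosolic enzymes were spread. Urod, the uroporphyrinogen decarboxylase, had 56.61 and 60.11 FPKM in the controls and 51.12 and 52.61 FPKM in the knockouts on water, narrowly without overlap (-0.17, 95% interval -0.53 to 0.19). Alad, which condenses aminolevulinate to porphobilinogen, overlapped between the groups, with 48.79 and 63.85 FPKM against 56.37 and 68.74 FPKM (0.16, 95% interval -0.34 to 0.65). Uros, which closes the porphyrin ring and is no member of the set, had the largest negative difference among the synthesis enzymes described here. It had 15.10 and 18.64 FPKM in the controls and 6.80 and 8.89 FPKM in the knockouts on water (-1.06, 95% interval -1.61 to -0.52, adjusted p = 0.0763).

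Hmox1, the inducible heme oxygenase, had 9.26 and 7.35 FPKM in the controls and 21.68 and 20.97 FPKM in the knockouts on water. Both knockout libraries exceeded both controls, and the mean was 256.8% of control. Hmox1 rose by 1.32 on the log2 scale (SE 0.19, 95% interval 0.85 to 1.78, adjusted p = 0.0393). Its values rest on an implied 208 to 599 fragments per library, a counting error of at most 6.93%. The call was lost when any library of the 2 groups compared was left out. Such a fit leaves 1 library in a group, and calls over all genes fell as well, so this loss is not particular to Hmox1. Leaving out control replicate 1 gave 1.48 with an adjusted p of 0.251, and leaving out control replicate 2 gave 1.16 with one of 0.239. Leaving out the first library of the knockouts on water gave 1.29 with an adjusted p of 0.26, and leaving out the second gave 1.34 with one of 0.158. All 4 values kept the direction and missed the threshold.

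Heme oxygenase is abundant in Kupffer cells, the macrophages that clear red cells in liver, so their markers were set beside it. The 12 markers summed to 154.4 and 128.8 FPKM in the controls, 157.9 and 131.2 FPKM in knockouts on water, and 150.5 and 159.5 FPKM in knockouts on serine. Relative to the control means, the sum was 111.6% and 92.7% in knockouts on water and 106.3% and 112.6% in knockouts on serine, where Hmox1 was 261.0%, 252.5%, 213.2% and 286.6% in the same order. The part of these cells in the Hmox1 values was not tested. Of the 12, 0 were called in limma in any comparison and 0 had an unadjusted p under 0.05, and none was at 0 in any library. A sum mostly follows the markers with high FPKM. Taken singly, 6 had a positive value and 6 a negative one on water, with a median of 0.02. For knockout on serine against control 9 were positive and 3 negative, with a median of 0.29, where the median of all genes was 0.16. Marco stood at 0.80 (adjusted p = 0.34), Cd163 at 0.45 (adjusted p = 0.342) and C1qa at -0.17 (adjusted p = 0.503) in the knockouts on water. The sinusoidal endothelial markers, 6 genes, summed to between 77.9 and 99.7 FPKM, also with 0 called by limma and 0 at an unadjusted p under 0.05 (Lyve1 at 0.52, Pecam1 at 0.26 and Kdr at 0.15 on water).

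Blvrb, which reduces biliverdin and flavins, overlapped between the groups, with 73.55 and 99.82 FPKM against 62.19 and 74.84 FPKM (-0.33, 95% interval -0.78 to 0.13). Other enzymes downstream of heme did not pass either. Blvra, the main biliverdin reductase of adult liver, had 7.36 and 6.29 FPKM against 12.70 and 11.31 FPKM (0.77, adjusted p = 0.136). Hmox2, the constitutive heme oxygenase, had 36.18 and 36.55 FPKM against 49.16 and 46.89 FPKM (0.40, adjusted p = 0.19). Ugt1a1, which conjugates bilirubin, overlapped, with 249.52 and 262.36 FPKM against 249.67 and 296.90 FPKM (0.09, adjusted p = 0.766). Together with Uros and Ugt1a1 these make 4 further pathway enzymes, of which limma called 0 in any comparison. At an unadjusted p under 0.05 there were 3 in this comparison, 0 for serine and 2 for knockout on serine against control. The shares of all genes were 21.6%, 7.23% and 25.7%.

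**Figure D2:**
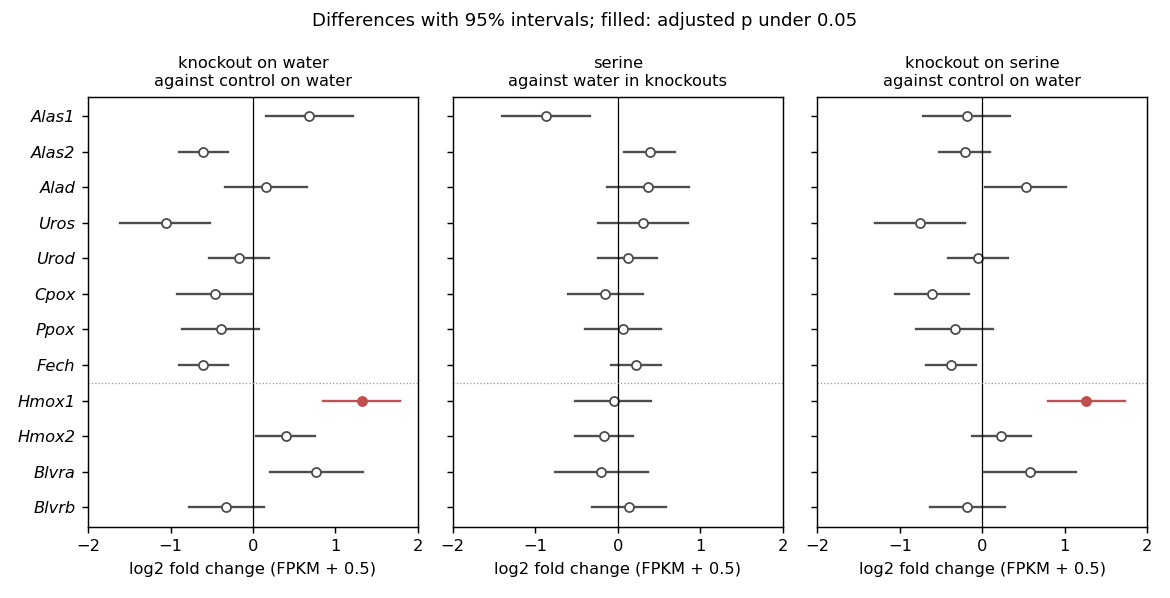
Log2 fold change of FPKM + 0.5 (x axis) of the 9 genes and 3 further enzymes of the pathway (y axis, in pathway order, breakdown below the dotted line) in the 3 comparisons; points are estimates and lines 95% intervals from limma. Only Hmox1 has filled points (adjusted p under 0.05), and the intervals of Uros, Cpox and Fech lie below 0 in both comparisons with the controls.

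Alas2 was 29.28 and 29.22 FPKM in the controls, 19.80 and 18.48 FPKM in knockouts on water, and 25.78 and 24.57 FPKM in knockouts on serine. The 3 groups did not overlap. Of all genes, 55.4% lay apart between knockout on water and control. The share was 37.8% between serine and water, and 57% between knockout on serine and control. The share apart in all 3 comparisons was not counted. The knockouts on water differed from control by -0.60 (95% interval -0.90 to -0.30, adjusted p = 0.0754), which did not pass. Alas2 was included as a gene of blood cells, so blood markers were set beside it. The adult hemoglobin genes Hbb-bs, Hbb-bt, Hba-a1 and Hba-a2 summed to 1136.1 and 1064.8 FPKM in the controls, 715.9 and 1586.4 FPKM in knockouts on water, and 1395.4 and 1336.7 FPKM in knockouts on serine.

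Relative to the control means, hemoglobin was 65.1% and Alas2 67.7% in knockout water replicate 1, and 144.2% and 63.2% in replicate 2. In the libraries on serine hemoglobin was 126.8% and 121.5%, and Alas2 88.1% and 84.0%. The 2 measures were alike in the first of these libraries and apart in the other 3, and the part of blood in the Alas2 values was not tested. Per 1000 FPKM of hemoglobin, Alas2 was 25.8 and 27.4 FPKM in the controls, 27.7 and 11.6 FPKM in knockouts on water, and 18.5 and 18.4 FPKM in knockouts on serine. Of 9 blood markers, 4 were under 0.5 FPKM in every library, among them Slc4a1 of the red cell membrane, and the erythroid factor gene Gata1 was at 0 in 5 of the 6 libraries. Klf1, another erythroid factor, had 1.48 and 1.5 FPKM in the controls and between 2.11 and 4.33 FPKM in the knockouts (knockout on water against control 0.68, adjusted p = 0.265). Hbb-bt stood at 0.09 and Hba-a1 at -0.08 in that comparison. Of the 5 blood markers tested, limma called 0 in any comparison, and 1 had an unadjusted p under 0.05, Klf1 in knockout on serine against control. The Alas2 model lies within the span of Apex2 on the opposite strand. Apex2, a DNA repair nuclease gene, had 5.85 and 5.61 FPKM in the controls, 3.52 and 2.12 FPKM in knockouts on water, and 3.9 and 4.08 FPKM in knockouts on serine. Its part in the Alas2 values was not tested, and the use of strand in counting is not given in the sources used here.

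**Figure D3:**
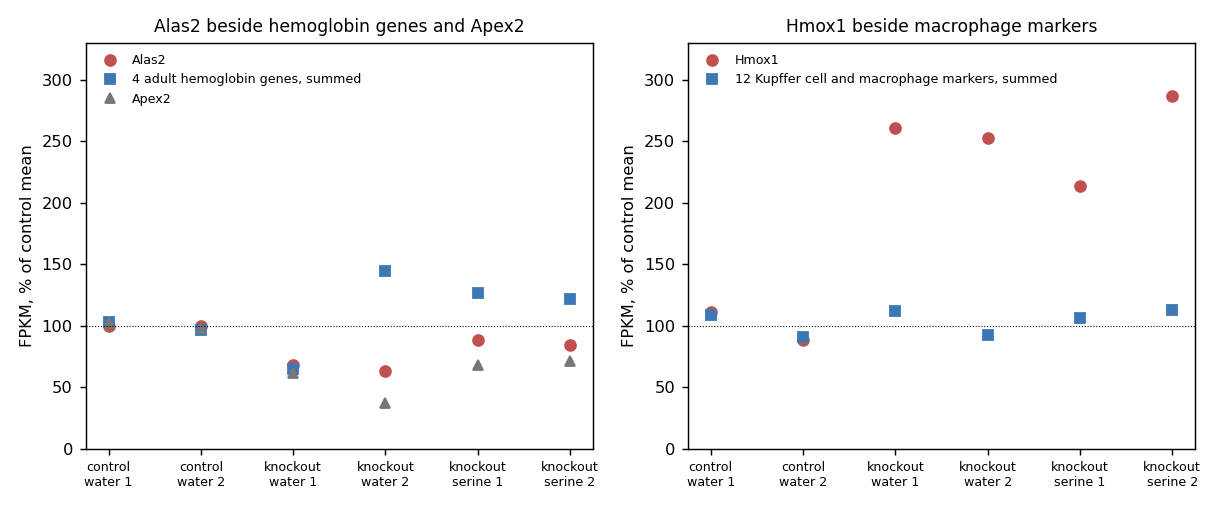
FPKM as a percentage of the mean of the 2 control libraries (y axis, linear) in each library (x axis). Left, Alas2 (circles), 4 summed hemoglobin genes (squares) and Apex2 (triangles): hemoglobin is at 65.1% and Alas2 at 67.7% in knockout water replicate 1, and at 144.2% and 63.2% in replicate 2. Right, Hmox1 (circles) and 12 summed macrophage markers (squares): Hmox1 is at 213.2% or more in the knockout libraries and the markers between 92.7% and 112.6%.

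Serine was then compared with water among the knockouts. Serine is a direct source of glycine, which ALAS1 uses. Limma called 0 of the 9 genes, and 0% of all 11134 genes. At an unadjusted p under 0.05 there were 2 of the 9 genes, Alas1 and Alas2, and 7.23% of all genes. The median over the 9 genes was 0.12, and 0.08 over all genes.

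Alas1 had the largest difference of the 9 in this comparison. Both libraries on serine, 266.50 and 167.46 FPKM, lay below both on water, and the mean was 56.0% of that on water. Libraries lay apart in this direction for 10.9% of all genes, and in either direction for 37.8%. The difference was -0.87 (SE 0.22, 95% interval -1.40 to -0.34, unadjusted p = 0.00635, limma adjusted p = 0.643). Without knockout serine replicate 2, the lower library, it was -0.54, and without knockout serine replicate 1 it was -1.21. In that lower library the mitochondrial share of FPKM was also the lowest of the 6, and its part in the Alas1 value was not tested. Clpx, a mitochondrial unfoldase that acts on ALAS proteins, had 106.60 and 52.58 FPKM on serine, with the lower value in the same library. It had 75.36 and 105.43 FPKM on water, and 173.86 and 141.12 FPKM in the controls, above every knockout library. Against control it stood at -0.81 on water (limma adjusted p = 0.237) and -1.06 on serine (limma adjusted p = 0.121).

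Alas2, Alad and Fech lay higher in both libraries on serine than in both on water, as did 26.9% of all genes. Alas2 differed by 0.39 (95% interval 0.08 to 0.69, adjusted p = 0.665), Alad by 0.37 (95% interval -0.13 to 0.87) and Fech by 0.22 (95% interval -0.08 to 0.52). Alad had 92.60 and 70.05 FPKM on serine, above its control libraries too. Fech had 51.94 and 46.39 FPKM, between the knockouts on water and the controls. Hmox1 overlapped between water and serine, with 17.71 and 23.80 FPKM on serine (-0.05, 95% interval -0.52 to 0.41). Urod, Cpox, Ppox and Blvrb overlapped as well, with differences between -0.15 and 0.14. That of Ppox turned from 0.06 to -0.02 with median-of-ratios scaling.

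The last comparison set knockout on serine against control on water. It shares the control libraries with the first comparison and the serine libraries with the second, so its values are not independent of theirs. Hmox1 rose, with a mean 249.9% of control (1.26, 95% interval 0.80 to 1.73, adjusted p = 0.0478), and 0 of the 9 genes fell. Of all genes, 1.18% were called (0.853% higher and 0.323% lower). These are 95 higher and 36 lower genes, or 16 and 20 with median-of-ratios scaling and 327 and 58 with TPM scaling. At an unadjusted p under 0.05 there were 4 of the 9, and 25.7% of all genes. The median gene stood at 0.16 in this comparison, at 0.02 with median-of-ratios scaling and at 0.24 with TPM scaling. Relative to the median gene Hmox1 was at 1.10, Alad at 0.36, Alas1 at -0.35, Fech at -0.54 and Cpox at -0.77.

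The Hmox1 call on serine was close to the threshold. Median-of-ratios scaling took it to 1.11 with an adjusted p of 0.0695, which missed the threshold. Leaving out control replicate 1 gave 1.42 with an adjusted p of 0.241, control replicate 2 gave 1.11 with one of 0.205, and knockout serine replicate 2 gave 1.06 with one of 0.16. Leaving out either knockout library on water gave 1.26 with one of 0.106. None of these passed. Leaving out knockout serine replicate 1 gave 1.47 and kept the call. Both serine libraries lay above both controls for Hmox1 and Alad (41.5% of all genes) and below for Alas2, Cpox, Ppox and Fech (15.5% of all genes), and libraries did not overlap for 57% of all genes in either direction. Alas1 overlapped with control (-0.19, 95% interval -0.72 to 0.34), as did Urod and Blvrb. Cpox had 65.74 and 46.46 FPKM on serine (-0.61, 95% interval -1.06 to -0.16, adjusted p = 0.114), and Fech differed by -0.38 (95% interval -0.68 to -0.08, adjusted p = 0.125).

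Ratios of genes within a library do not depend on how libraries are scaled. Those given here were chosen after the values were seen and are a description. Alas1 over Fech, the entry step over the last step, was 3.9 and 3.62 in the controls, 9.76 and 8.71 in knockouts on water, and 5.13 and 3.61 in knockouts on serine. The knockouts on water stood apart from all other libraries in this ratio. Alas1 over Hmox1 was 27.2 and 31.3 in the controls, 18.4 and 18.0 in knockouts on water, and 15.0 and 7.04 in knockouts on serine. Cpox over Alad was 1.78 and 1.29 in the controls, 1.01 and 0.957 in knockouts on water, and 0.71 and 0.663 in knockouts on serine. In these last ratios all 4 knockout libraries lay below both controls, and both serine libraries below both on water.

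**Figure D4:**
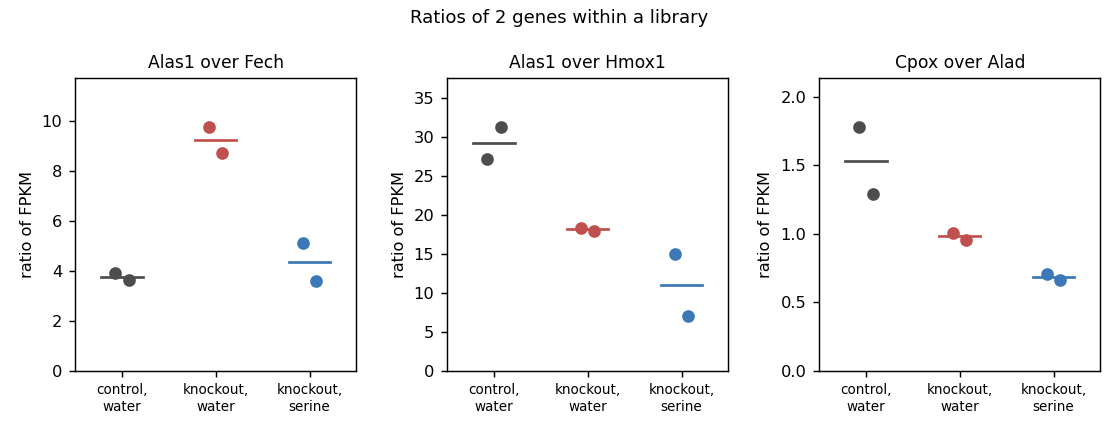
Ratio of the FPKM of 2 genes within a library (y axes, linear, from 0) in the 3 groups (x axis); points are libraries and bars the mean of 2. Alas1 over Fech is 8.71 or more in the knockouts on water and 5.13 or less elsewhere, and Cpox over Alad is lowest on serine.

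Regulators of Alas1 and Hmox1 were read next, 16 genes. Ppargc1a, which encodes PGC-1 alpha, rose in the knockouts on water (1.57, adjusted p = 0.0393) and in those on serine (1.54, adjusted p = 0.0454), and no other regulator was called. Its FPKM were 3.43 and 2.47 in the controls, 9.81 and 9.54 in knockouts on water, and 7.86 and 11.24 in knockouts on serine. Mafk, a small Maf partner of NRF2 and BACH1, stood at 0.78 (adjusted p = 0.0784) in the knockouts on water, and Nr1d2, which encodes a heme-binding nuclear receptor, at 0.71 (adjusted p = 0.0893). Of the 16 regulators, 11 had a positive value and 5 a negative one on water. Mafg, another small Maf, stood at -0.52 (adjusted p = 0.107), and Egr1, an immediate early transcription factor, at -1.72 (adjusted p = 0.145) on water and -2.23 (adjusted p = 0.078) on serine. The list median was 0.29 in the knockouts on water, -0.04 for serine and 0.19 for knockout on serine against control. The number called was 0 in the first comparison without either control or either knockout library on water, and 0 in the last without either control, either knockout library on water or knockout serine replicate 2, or with median-of-ratios scaling. With no filter on low values, without the variance trend or with the replicate block, Ppargc1a was not called in either comparison with the controls. It was also not called on serine with only the 4 libraries compared. In the serine comparison limma called 0, with 1 at an unadjusted p under 0.05, Mafg. At that threshold there were 8 of the 16 on water and 7 for knockout on serine against control. The shares of all genes were 21.6% on water, 7.23% for serine and 25.7% for knockout on serine against control.

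Hmox1 was not accompanied by other NRF2 and BACH1 targets in the calls. Of 15 tested, limma called 0 in each comparison, with 6, 1 and 7 at an unadjusted p under 0.05 in the order given above, and their medians were 0.18, 0.13 and 0.24. Over all genes the shares at that threshold were 21.6%, 7.23% and 25.7%, and the medians 0.08, 0.08 and 0.16. Members stood on both sides. Gclm, the modifier subunit of glutathione synthesis, had 66.00 and 61.49 FPKM in the controls and 31.85 and 33.98 FPKM in the knockouts on water (-0.94, adjusted p = 0.0635). Osgin1 had 33.10 and 28.63 FPKM against 13.25 and 7.05 FPKM (-1.62, adjusted p = 0.0895). Pgd, of the pentose phosphate pathway, stood at 0.69 (adjusted p = 0.0847). The first count was 1, Gclm, without either serine library (adjusted p = 0.0433 and 0.0423), and the last was 1, Srxn1, without knockout serine replicate 1 (1.08, adjusted p = 0.0485).

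Precursor supply was read from 11 genes of glycine and succinyl-CoA metabolism, of which limma called 0 in each comparison. At an unadjusted p under 0.05 there were 7, 1 and 7, and the medians were 0.16, 0.13 and 0.32. For all genes the shares were 21.6%, 7.23% and 25.7%, and the medians 0.08, 0.08 and 0.16. Amt, of the glycine cleavage system, had 28.57 and 32.37 FPKM in the controls, 13.57 and 15.34 FPKM in the knockouts on water (-1.05, adjusted p = 0.0567) and 23.81 and 32.29 FPKM in those on serine. Its difference between serine and water was 0.92 (adjusted p = 0.639). Ogdh (1.01, adjusted p = 0.0596) and Dlst (0.67, adjusted p = 0.0735), subunits of the complex that makes succinyl-CoA, had higher values than control in the knockouts on water without passing. The first count was 1, Amt, without either serine library (adjusted p = 0.0437 and 0.0445). The last was 1, Dlst, without knockout serine replicate 1 (0.95, adjusted p = 0.0494). When the mean had to reach 5 FPKM, Amt and Ogdh were called on water (adjusted p = 0.0432 and 0.0467), and Dlst and Ogdh on serine (adjusted p = 0.0374 and 0.0387). TPM scaling also called Dlst and Ogdh on serine (adjusted p = 0.0384 and 0.0422).

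Carriers, iron supply and protein turnover around the pathway took in 19 genes, and limma called 0 in each comparison, with 3, 0 and 8 at an unadjusted p under 0.05. Their medians were 0.01, 0.20 and 0.23. The shares of all genes at that threshold were 21.6%, 7.23% and 25.7%, and the all-gene medians 0.08, 0.08 and 0.16. Fam210b, a mitochondrial protein linked to heme synthesis in red cell precursors, had a value of -0.59 (adjusted p = 0.0876) in the knockouts on water. Hebp1, a heme-binding protein, had one of -0.57 (adjusted p = 0.121), and the mitochondrial iron importer gene Slc25a28 one of 0.78 (adjusted p = 0.125). Plasma heme scavenging, 5 genes, had 0 called by limma in each comparison, with 2, 0 and 0 at an unadjusted p under 0.05 and medians of -0.30, -0.04 and -0.25. Lrp1, a receptor for the hemopexin and heme complex, had a value of -0.41 (adjusted p = 0.131) and Ambp, the alpha-1-microglobulin precursor, one of -0.36 (adjusted p = 0.214).

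Among 16 hepatic hemoproteins, those that use heme, Cycs (cytochrome c) rose and Ido2 (a tryptophan-degrading dioxygenase) fell in both comparisons with the controls. In the knockouts on water the values were 1.15 (adjusted p = 0.0306) and -2.38 (adjusted p = 0.011), and in those on serine 1.25 (adjusted p = 0.035) and -1.70 (adjusted p = 0.0342). Medians were 0.06, -0.01 and -0.07. Cyc1, the cytochrome c1 gene, had a value of 0.57 (adjusted p = 0.0758) on water. Without the variance trend Ido2 alone was called on water, and neither Cycs nor Ido2 was with no filter or with the replicate block. On serine against control neither of them was called under these choices or with only the 4 libraries compared. The first count of 2 became 1 without knockout water replicate 2 and 0 without either control or knockout water replicate 1. The last count of 2 became 0 without either control, either knockout library on water or knockout serine replicate 2. Serine against water had 0 called by limma and 2 at an unadjusted p under 0.05, Ido2 and Tdo2. At that threshold there were 5 of the 16 on water and 4 for knockout on serine against control. Hepatocyte markers, 8 genes, had 0 called by limma in each comparison, with 5, 0 and 5 at an unadjusted p under 0.05. Their medians were -0.22, 0.04 and -0.11. All genes had shares of 21.6%, 7.23% and 25.7% at that threshold, and medians of 0.08, 0.08 and 0.16. In the knockouts on water Pck1, of gluconeogenesis, stood at 0.95 (adjusted p = 0.0602), Cps1, of the urea cycle, at 1.2 (adjusted p = 0.0877) and Serpina1a at -0.52 (adjusted p = 0.101). The count of 0 depended on scaling and filter: Pck1 was called on water and on serine with TPM scaling (adjusted p = 0.0483 and 0.0447) and with the filter at 5 FPKM (adjusted p = 0.0477 and 0.0418).

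Likeness of pattern was measured by Pearson's r of log2(FPKM + 0.5) over the 6 libraries, among 6946 other genes with a mean of 5 FPKM or more. The 5 genes most like Hmox1 were Ppargc1a (r = 0.9998), Dmxl2 (0.9951), Pofut2 (0.9945), Ubl7 (0.9935) and Ppm1g (0.9933). Those most like Alas1 were Mir22hg (0.9774), Cldn12 (0.9731), Nat2 (0.9709), Trim2 (0.9631) and Ormdl3 (0.9623). Cldn12, for example, had 24.14 and 21.64 FPKM in the controls, 31.68 and 27.47 FPKM in knockouts on water, and 24.30 and 19.09 FPKM in knockouts on serine. With 6 libraries in 3 groups and so many genes compared, high values of r are a description of these libraries.

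**Figure D5:**
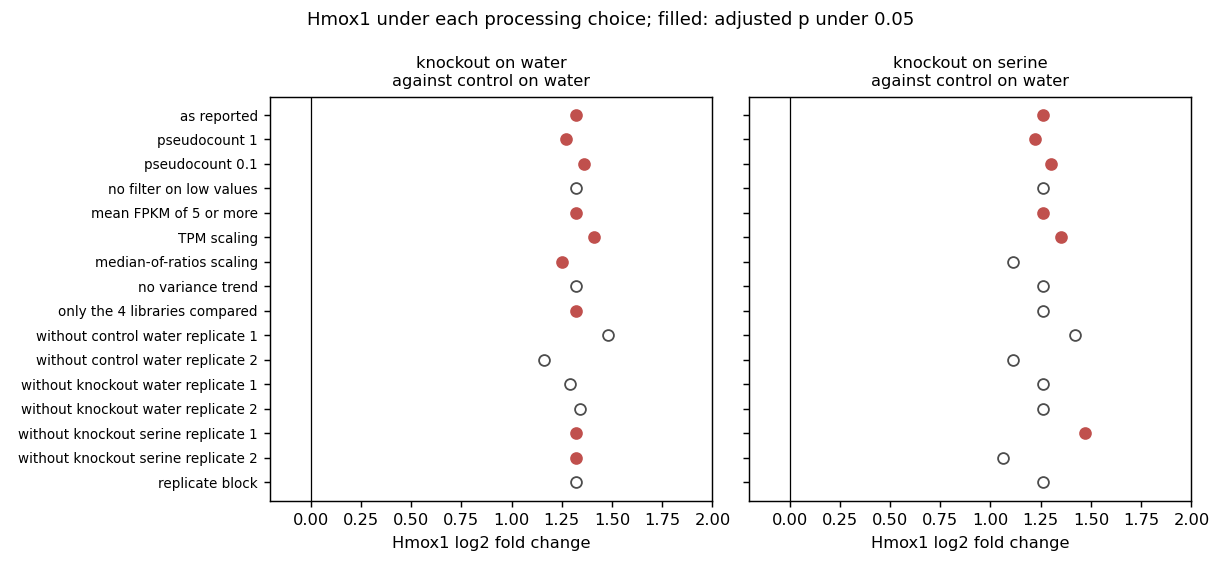
Log2 fold change of Hmox1 (x axis) as reported and under 15 other processing choices (y axis) in the comparisons of each knockout group with control; filled points have an adjusted p under 0.05. Every value lies between 1.06 and 1.48, and the filled points are 8 of 15 alternatives on water and 5 of 15 on serine.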

How the data were processed

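The authors deposited FPKM values per gene for 6 libraries. The submitters' processing notes name bcl2fastq, HISAT2 2.0.5 and GRCm39. How FPKM were computed, with which annotation and strand setting, is not given in the sources used here. RNA was isolated with Trizol, per the labels' protocols. Groups came from the sample titles.

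The 11134 genes whose FPKM averaged 1 or more were tested. On log2(FPKM + 0.5), limma 3.58.1 in R 4.3.3 (lmFit, eBayes with trend) fitted 1 mean per group over all 6 libraries. Two-sided p-values were adjusted by Benjamini-Hochberg over all genes tested, with a threshold of 0.05. Residual degrees of freedom were 3 and prior ones 3.46. An exact permutation test of 2 against 2 libraries cannot go below p = 0.333 and was not used. The script was tested on simulated data.

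Fragments per library were inferred from single-exon genes of 500 to 1500 bases. Low values, multiplied by length less an offset, were whole multiples of a step for 84.6% to 89.9% of genes (tolerance 0.03 beyond rounding). For a step fixed in advance chance gives 17.8% to 19.4%. Offset and step were chosen in each library for the largest excess over that chance, so these shares are no test. Fragments per gene use that step with the table's length and are approximate; they cover counting error only.

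The members and gene lists were chosen with earlier results of these data known. Named genes were the members, Gapdh, called genes of a list, the 3 of a list with the smallest p on water, and the 5 most like Alas1 and Hmox1. Alb, Apex2, B4galt3, Clpx, Srxn1, Mafg, Egr1, Tdo2, Ugt1a1 and single blood markers fall outside that rule and were named after their values were seen. Some genes of the lists are not reported here. Alternatives were other pseudocounts, filters, scalings and variance models, fits of the libraries compared, each library left out, and the replicate number as a block. Promoter sequences are RefSeq's (GRCm38.p6), and annotated exons beside them GENCODE M21's.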

Additional observations from a re-analysis of the deposited data

How the results depend on the processing

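The number of members called in knockout on water against control was 1, and 0 with no filter on low values, without the variance trend or with the replicate block. For knockout on serine against control it was 1, and 0 under those choices, with median-of-ratios scaling or with only the 4 libraries compared. With a library left out it ranged from 0 to 1 in both.

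All genes called on water numbered 135. They were 2 with no filter, 224 with TPM scaling (170 higher, 54 lower), 16 without the trend, 210 with only the 4 libraries compared, 4 with the replicate block, and 7 to 215 with a library left out. On serine against control they numbered 131. They were 3 with no filter, 450 with the filter at 5 FPKM, 385 with TPM scaling (327 higher, 58 lower), 36 with median-of-ratios scaling (16 higher, 20 lower), 8 without the trend, 4 with only the 4 libraries compared, 4 with the replicate block, and 4 to 203 with a library left out. For serine against water they numbered 0, and 0 to 6 with a library left out. The cause of these differences was not tested.

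Replicate numbers were not treated as pairs in the fit as reported. Deviations of same-numbered libraries correlated at 0.03, 0.04 and -0.20, which cannot show whether the samples had been paired. With the numbers of the knockout groups crossed, an alternative chosen after seeing the data, serine against water had 0 genes called.

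Differences that changed sign were small ones, given here as the range with a library left out. On water, Alad ranged from -0.04 to 0.35. For serine against water, Urod ranged from -0.05 to 0.29, Cpox from -0.39 to 0.10, Ppox from -0.16 to 0.28 (-0.03 without knockout serine replicate 1, and -0.02 with median-of-ratios scaling), Hmox1 from -0.26 to 0.16, and Gapdh from -0.13 to 0.34 (-0.01 without knockout serine replicate 2). For knockout on serine against control, Alas1 ranged from -0.52 to 0.15, Urod from -0.22 to 0.12 (0.03 with TPM scaling) and Blvrb from -0.41 to 0.03. A group left with 1 library was assumed to vary like the others. Hmox1 stayed between 1.16 and 1.48 on water (adjusted p 0.0305 to 0.26) and between 1.06 and 1.47 on serine (adjusted p 0.0332 to 0.241) under all 15 alternatives. No other member was called under any alternative in any comparison. Among list genes not called as reported, the filter at 5 FPKM called Gclm on water (adjusted p = 0.0479), and Pgd, Cyc1 and Fam210b on serine against control (adjusted p = 0.0443, 0.0355 and 0.0434). TPM scaling called Pgd and Cyc1 there (adjusted p = 0.0479 and 0.038), and other pseudocounts Cyc1 (adjusted p = 0.0494 and 0.0496). With only the 4 libraries compared, Gclm and Amt were called on water (adjusted p = 0.0414 and 0.0449).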
